A study of Mus musculus with 10 samples.

Results

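The phagocyte NADPH oxidase subunits Cybb, Cyba, Ncf1, Ncf4 and Rac2 were followed in MLL-AF9 leukemia cells with and without induction of miR-139. The 5 genes were found by their symbols among 52550 genes in a table of read counts, and a gene with under 10 counts in total over the 10 libraries was taken as not measured, which left 4 of the 5. Cyba was the gene not measured. The rule uses names only, but the genes were proposed with earlier results of these data known.

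The oxidase is the enzyme behind the respiratory burst of neutrophils and macrophages. Cybb and Cyba form the cytochrome in the membrane that carries electrons from NADPH to oxygen, which makes superoxide. In a resting cell the organizer Ncf1 and the adaptor Ncf4 wait in a cytosolic complex, and on stimulation they join the cytochrome together with a Rac GTPase, in myeloid cells chiefly Rac2. Several of these genes are known to be expressed more as myeloid cells mature, and loss of a subunit is known from chronic granulomatous disease.

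All cells were hematopoietic stem and progenitor cells (HSPCs) enriched from the bone marrow of C57BL/6 mice of 8 to 20 weeks, transformed with a retrovirus for the fusion oncogene MLL-AF9 and carrying tetR-KRAB, the repressor that holds the inducible construct silent until doxycycline (DOX) is added. MLL-AF9-i139 cells carried pCW-miR-139, in which DOX induces miR-139, and 3 clones picked as colonies were each sequenced once with and once without DOX. MLL-AF9-ieGFP cells carried an inducible eGFP instead, and were 1 clone sequenced untreated and DOX-treated after 48 h and after 72 h, so that its replicates are time points rather than clones. DOX was given at 5 µg/mL, for 48 h in MLL-AF9-i139 clones 1 and 2 and for 72 h in clone 3, and no time is labelled for their untreated cultures. Clone 3 and the longer treatment therefore cannot be told apart.

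The libraries were made from total RNA after removal of ribosomal RNA, and their total counts ran from 35133308 to 47089725. Levels are given as CPM, read counts scaled to a common library size and normalized by TMM, and differences as log2 fold changes with the standard error (SE). A gene was called at an adjusted p under 0.05 (Benjamini-Hochberg, edgeR). In the 3 MLL-AF9-i139 clones, 12 of 19223 genes tested were called, 0.0624%, and with the clone as a block 2381 were. The SD over 10672 genes of the log2 change with DOX was 0.55 in clone 1, 0.56 in clone 2 and 0.26 in clone 3. Mir139 itself had 0 counts in all 10 libraries, so these counts give no check of the induction. Markers of T cells summed to at most 0.668 CPM and of B cells to at most 1.62 CPM in any library, against a sum of at least 2674 CPM for 10 markers of myeloid progenitors.

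The mature strands of the induced miRNA are shown because their seeds (bases 2 to 8, in capitals) decide which transcripts could pair with them. They lie on the plus strand of GRCm38.p6 at chr7:101475382-101475403 and chr7:101475418-101475439, and the sequences are those of RefSeq.
miR-139-5p: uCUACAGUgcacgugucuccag
miR-139-3p: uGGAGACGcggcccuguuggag
The complement of the 5p seed, ACTGTAG, occurred 0 times in the longest annotated 3′ UTR of each of the 5 subunits, and so did that of the 3p seed, CGTCTCC. These UTRs were 102 bases long in Cyba, 189 in Ncf4, 1690 in Ncf1, 2321 in Rac2 and 2965 in Cybb. Over 21039 genes with an annotated 3′ UTR, 11% held the 5p match and 3.16% the 3p match.

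Promoter sequence is shown for Cybb and Ncf1, the subunits whose 250 bases before the RefSeq start held a match to a motif of a myeloid transcription factor. The motifs searched on both strands were GAGGAAGT for PU.1, TTGCNNAA for C/EBP factors and, for IRF factors, the letters GAAA, any 2 bases and GAAA again, and they overlapped nowhere in these windows. RefSeq gave a promoter for 3 of the 5 subunits, Cybb, Cyba and Ncf1. The sequences run 5′ to 3′ along the gene, on the minus strand of GRCm38.p6 at chrX:9469325-9469574 for Cybb, inside the gene body of the GENCODE annotation, and at chr5:134229626-134229875 for Ncf1. Capitals mark the IRF matches.
Cybb: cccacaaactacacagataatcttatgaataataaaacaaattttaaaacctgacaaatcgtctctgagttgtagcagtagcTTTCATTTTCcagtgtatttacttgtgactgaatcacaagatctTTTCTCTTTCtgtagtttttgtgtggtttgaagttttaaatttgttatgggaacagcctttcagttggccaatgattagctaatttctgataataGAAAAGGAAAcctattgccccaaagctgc
Ncf1: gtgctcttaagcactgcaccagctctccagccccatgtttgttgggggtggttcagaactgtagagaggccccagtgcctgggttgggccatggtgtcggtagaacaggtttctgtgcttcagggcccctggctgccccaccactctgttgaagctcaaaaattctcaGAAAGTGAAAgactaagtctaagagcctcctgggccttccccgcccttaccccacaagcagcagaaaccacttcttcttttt
The Cybb window held 3 IRF matches, which ended 20, 115 and 159 bases before the start, and the Ncf1 window held 1, which ended 73 bases before it. The Cyba window held none of the 3 motifs. Of 32851 promoters of the same length, 2.98% held the IRF motif, 2.44% the PU.1 motif and 9.56% the C/EBP motif, and 4 held at least 3 IRF matches, a count made after the Cybb matches were seen. The Cybb window was 34% G and C, against 54.4% for Ncf1 and 60% for Cyba, and the promoters compared were not matched for this. These matches describe the letters in the windows, and neither the part of base composition nor binding was tested.

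Cyba, the smaller subunit of the cytochrome (chromosome 8, 122424776 to 122432930 on the minus strand of GRCm38) was listed at 0 counts in every library. The whole of its body lies inside Gm20388, a gene model of the opposite strand from 119910841 to 124345722, which had between 3210 and 4247 counts per library. Among protein-coding genes whose whole body lies in other genes, 1232 of 1261 (97.7%) were at 0, against 24.5% of 12012 without any overlap and 5.18% of 8546 with part of the body in other genes. Cyba was therefore read as not measured, not as absent, and enters no comparison. Gm20388 differed by -0.03 (SE 0.10) on the log2 scale with DOX in MLL-AF9-i139, adjusted p = 0.887.

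Cybb, the catalytic subunit (chromosome X, 9435252 to 9487771, minus strand), was measured at a low level, with a total of 178 counts. Without DOX, MLL-AF9-i139 clones 1, 2 and 3 had 22, 17 and 7 counts (0.451, 0.388 and 0.177 CPM), and with DOX they had 49, 29 and 7 counts (1.02, 0.737 and 0.178 CPM). MLL-AF9-ieGFP at 48 h and 72 h had 16 and 10 counts untreated, against 9 and 12 when treated. Clones 1 and 2 were thus higher with DOX, while clone 3 had the same count in both libraries, and the groups overlapped. The exact 95% Poisson interval of 7 counts is 2.81 to 14.4 and that of 49 counts is 36.3 to 64.8, which cover counting error only. No other gene overlaps Cybb in the annotation. A level of 3 counts corresponded to between 0.0637 and 0.0854 CPM in these libraries before TMM scaling, and Cybb lay above it in all 10.

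Ncf1, the organizer subunit (chromosome 5, 134220053 to 134229625, minus strand), showed the largest difference with DOX among the members that were measured. Without DOX the 3 MLL-AF9-i139 clones had 60.5, 64.2 and 64.0 CPM, and with DOX 158, 160.5 and 80.3 CPM, in the order of the clones. The means were 62.9 ± 2.06 and 133 ± 45.6 CPM (SD, n = 3). Untreated MLL-AF9-ieGFP had 65.5 and 63.8 CPM at 48 h and 72 h, and DOX-treated MLL-AF9-ieGFP 60.4 and 72.0 CPM. All 3 clones with DOX lay above all 3 without, clone 3 by the least. In the annotation 65.4% of the Ncf1 exons lie inside Gtf2ird2, a gene of the opposite strand, and Gtf2ird2 also differed with DOX, by 0.49 (SE 0.12) on the log2 scale (adjusted p = 0.118, and 0.0428 with the clone as a block). Whether reads of one were lost to or counted for the other was not tested, since the overlap and strand settings of the counting are not given in the sources used here. The count of Ncf1 per count of Gtf2ird2 was 2.497, 2.956 and 2.457 in the untreated clones and 4.672, 4.476 and 2.647 in the treated ones, so Ncf1 differed more than Gtf2ird2 in clones 1 and 2.

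Ncf4, the adaptor subunit (chromosome 15, 78244801 to 78262580, plus strand), had 79.4, 83.5 and 66.9 CPM without DOX in MLL-AF9-i139 clones 1, 2 and 3, and 124, 131 and 85.5 CPM once treated. The means were 76.6 ± 8.63 and 114 ± 24.4 CPM (SD, n = 3). In MLL-AF9-ieGFP it stood at 84.1 and 72.5 CPM in untreated cells and at 78.8 and 90.4 CPM in treated ones. The i139 groups did not overlap, but clone 3 with DOX was only just above clone 2 without.

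Rac2, the GTPase subunit (chromosome 15, 78559167 to 78572783, minus strand), was the most abundant member. Without DOX the MLL-AF9-i139 clones had 401, 451 and 394 CPM and with DOX 494, 586 and 460 CPM, with means of 415 ± 31.2 and 513 ± 65.2 CPM (SD, n = 3). In MLL-AF9-ieGFP it stood at 434 and 457 CPM untreated, and at 436 and 489 CPM treated. The groups of MLL-AF9-i139 were apart by a small margin, clone 3 with DOX against clone 2 without. Rac2 shares much of its coding sequence with Rac1 and Rac3, and how reads that fit more than 1 of them were counted is not given in the sources used here.

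**Figure D1:**
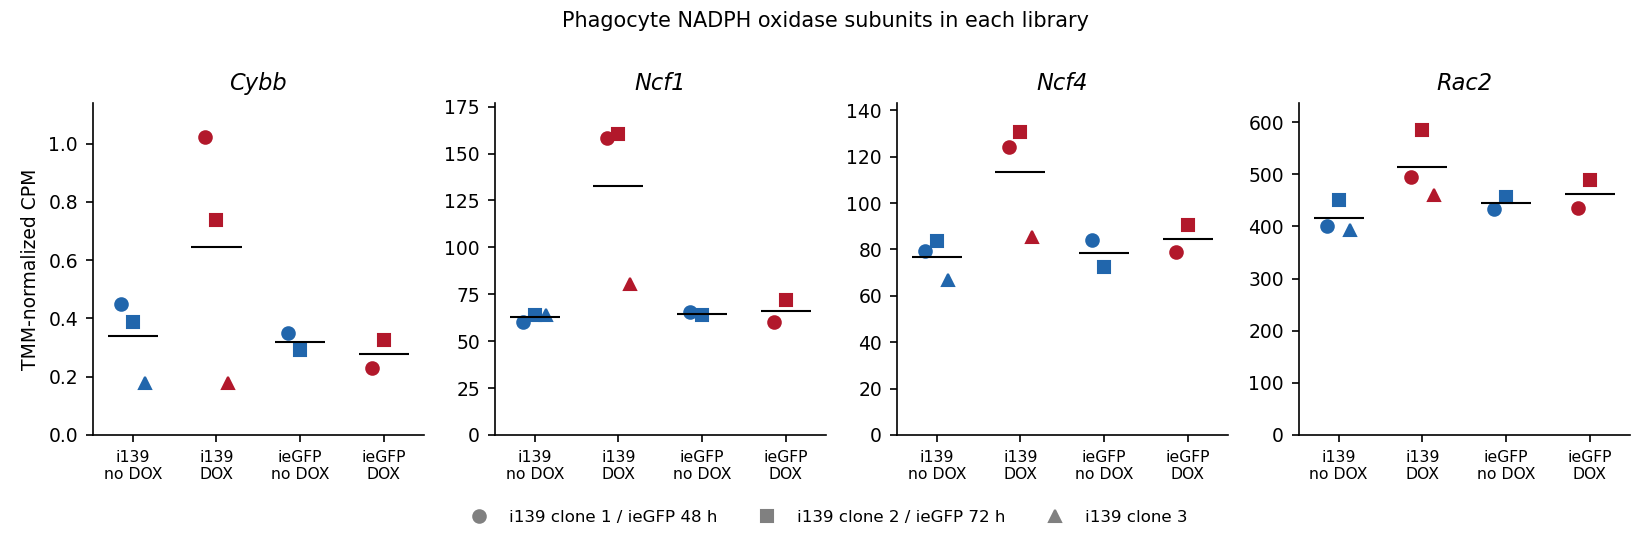
TMM-normalized CPM (y axis, linear from 0) of Cybb, Ncf1, Ncf4 and Rac2 in each of the 10 libraries, with blue for no DOX, red for DOX, a symbol per clone or time point and a black line for the group mean. The DOX-treated MLL-AF9-i139 clones 1 and 2 stand above every other library for all 4 genes, and clone 3 (triangle) lies close to the untreated libraries.

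Per length of exon, the levels in untreated MLL-AF9-i139 ranked Rac2 at 134 ± 10.1, Ncf4 at 37.9 ± 4.27, Ncf1 at 17.2 ± 0.564 and Cybb at 0.0583 ± 0.0247 CPM per kb (SD, n = 3), and no neighbours in this order came within their spread. Per length of the whole gene body Ncf1 stood at 6.57 ± 0.216 and Ncf4 at 4.31 ± 0.486 CPM per kb, so the order of these 2 depends on the length used. Rac2 was the highest and Cybb the lowest on both scales.

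The central comparison asked which genes changed when DOX induced miR-139 in MLL-AF9-i139. The log2 fold change was 1.09 (SE 0.24) for Ncf1, 0.94 (SE 0.60) for Cybb, 0.58 (SE 0.17) for Ncf4 and 0.32 (SE 0.12) for Rac2, all toward higher values with DOX, beside a median of 0.01 over all genes. Without a block, edgeR called 0 of the 4, with adjusted p of 0.1 for Ncf1, 0.133 for Ncf4, 0.191 for Rac2 and 0.409 for Cybb. An unadjusted p under 0.05 was found for 3 of the 4, and for 3959 of all 19223 genes tested. In a fit with each clone as its own block, since both libraries of a clone are the same cell line, Ncf1, Ncf4 and Rac2 rose, 3 of 4, by 1.03 (SE 0.20), 0.56 (SE 0.09) and 0.31 (SE 0.08) with edgeR adjusted p of 0.0296, 0.0249 and 0.0434, and Cybb had 0.89 (SE 0.32, adjusted p = 0.11). In that fit 7.05% of all genes tested were called higher and 5.33% lower. DESeq2 without a block called Ncf1 (adjusted p = 0.00111) and Ncf4 (adjusted p = 0.038) higher, not Rac2 (adjusted p = 0.144), and gave no adjusted p for Cybb, where 7.51% of the genes tested were called higher. The groups of libraries were apart, with DOX higher, for 3 of the 4 members, as they were for 12.0% of all genes tested.

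Clone 3 carried the least of this difference. The log2 changes of clones 1, 2 and 3 were 1.39, 1.32 and 0.33 for Ncf1, 0.65, 0.65 and 0.35 for Ncf4, 0.30, 0.38 and 0.22 for Rac2, and 1.10, 0.85 and 0.00 for Cybb. Without clone 3, edgeR called Ncf1 (1.37, SE 0.09, adjusted p = 0.000203) and Ncf4 (0.67, SE 0.09, adjusted p = 0.0022) higher, and left Rac2 at 0.36 (adjusted p = 0.0637) and Cybb at 1.09 (adjusted p = 0.0672), where 11.6% of the genes tested were called higher and 10.1% lower. Without clone 1 or without clone 2 the log2 fold change of Ncf1 was 0.91 or 0.95, with adjusted p of 0.679 and 0.742. Over all 10 alternatives the adjusted p ranged from 4.46e-24 to 0.742 for Ncf1, from 1.75e-12 to 0.742 for Ncf4, from 8.54e-06 to 0.742 for Rac2 and from 0.00803 to 0.822 for Cybb, and all 10 gave a higher level with DOX for each of the 4. Each lowest value came from the blocked fit without clone 3, added after the data were seen, with 1 residual degree of freedom per gene. In the other alternatives the lowest were 0.000203 for Ncf1, 0.0022 for Ncf4, 0.0434 for Rac2 and 0.0672 for Cybb.

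**Figure D2:**
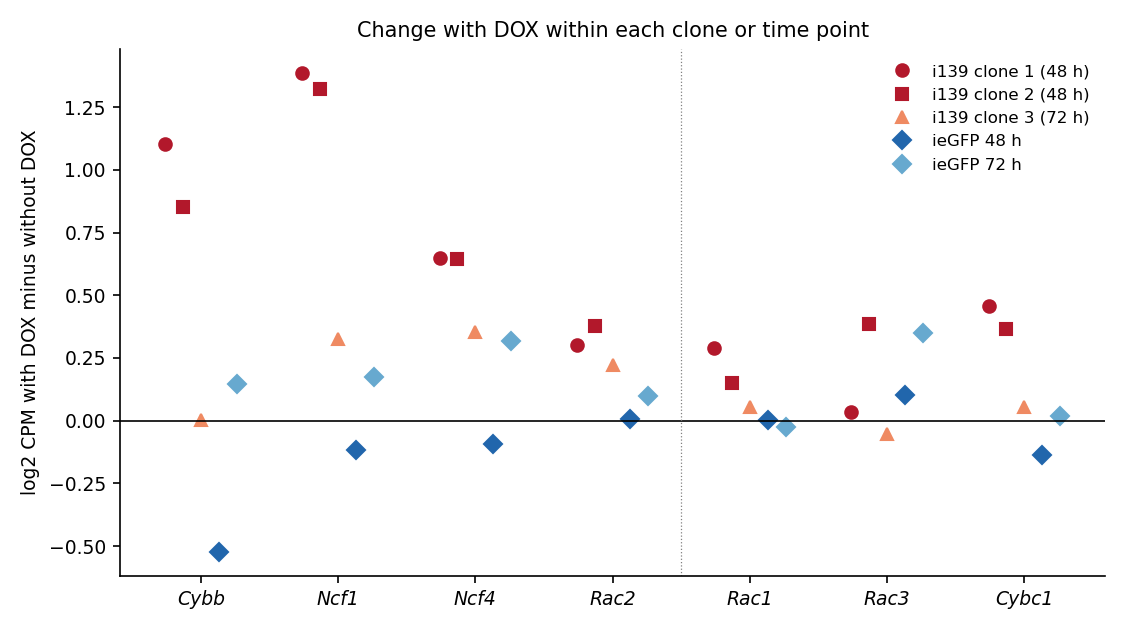
Log2 CPM with DOX minus log2 CPM without DOX (y axis) for the 4 measured members, left of the dotted line, and for 3 further oxidase components, right of it, with a point per MLL-AF9-i139 clone (red and orange) and per MLL-AF9-ieGFP time point (blue). Clones 1 and 2 lie at 1.39 and 1.32 for Ncf1 while clone 3 lies at 0.33, and the ieGFP points lie on both sides of 0.

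In MLL-AF9-ieGFP, where DOX induces eGFP, the members differed little. The log2 fold change with DOX was 0.03 (SE 0.26) for Ncf1, 0.11 (SE 0.19) for Ncf4, 0.05 (SE 0.13) for Rac2 and -0.22 (SE 0.73) for Cybb, each with an edgeR adjusted p of 1. Of all 20269 genes tested 0% were called by edgeR, with 259 at an unadjusted p under 0.05 and 1 called by DESeq2. By time point, the change at 48 h and at 72 h was -0.12 and 0.17 for Ncf1, -0.09 and 0.32 for Ncf4, 0.01 and 0.10 for Rac2, and -0.52 and 0.15 for Cybb. At 72 h, Ncf4 in MLL-AF9-i139 clone 3 (0.35) and in MLL-AF9-ieGFP (0.32) were thus close, with 1 pair of libraries each and no test. At 48 h the changes of clones 1 and 2 exceeded that of MLL-AF9-ieGFP for all 4.

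The difference between the DOX effects of the constructs was tested directly. It was 1.05 (SE 0.33) for Ncf1, 0.46 (SE 0.25) for Ncf4, 0.25 (SE 0.17) for Rac2 and 1.14 (SE 0.90) for Cybb, with adjusted p between 0.527 and 0.698, so edgeR called 0 of the 4, with 1 (Ncf1) at an unadjusted p under 0.05 and 0 called by DESeq2. Of all genes 0.00493% were called without the block, with 1859 of 20269 at an unadjusted p under 0.05. In the blocked fit, adjusted p ran from 0.115 for Ncf1 to 0.319 for Cybb, and 38 genes were called. Without clone 3, Ncf1 (1.35, SE 0.14, adjusted p = 0.000277) and Ncf4 (0.57, SE 0.14, adjusted p = 0.0292) were called higher in MLL-AF9-i139, where 5.74% of the genes tested were. With 48 h of DOX only, the difference was 1.47 for Ncf1 and 0.74 for Ncf4. That fit held 1 MLL-AF9-ieGFP library per arm, so it measures no spread of this construct and its p-values are not given. Over the 11 alternatives the adjusted p ranged from 0.000277 to 0.949 for Ncf1 and from 0.0292 to 0.949 for Ncf4. Between the untreated cells of the constructs, the members differed by -0.04 (SE 0.23) for Ncf1, -0.03 (SE 0.17) for Ncf4, -0.10 (SE 0.12) for Rac2 and 0.09 (SE 0.64) for Cybb, and edgeR called 0 of the 4, with 0 at an unadjusted p under 0.05 and 0 by DESeq2, beside 0.0444% of all genes.

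Ratios within a library do not depend on its depth or scaling. There were 0.762, 0.768 and 0.956 counts of Ncf1 per count of Ncf4 in untreated MLL-AF9-i139 clones 1, 2 and 3, and 1.27, 1.23 and 0.939 with DOX. For MLL-AF9-ieGFP this ratio was 0.778 and 0.880 in untreated and 0.767 and 0.797 in treated cells. The Ncf1 count was thus higher relative to Ncf4 in treated clones 1 and 2, and in clone 3 the ratio was nearly the same in both libraries. Counts of Ncf4 per count of Rac2 were 0.198, 0.185 and 0.170 in the untreated i139 clones and 0.251, 0.223 and 0.186 in the treated ones. This second ratio was thus higher with DOX in each i139 clone. The eGFP control went from 0.194 down to 0.181 at 48 h, but from 0.159 up to 0.185 at 72 h. Clone 3, also treated for 72 h, rose by no more than this control pair.

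**Figure D3:**
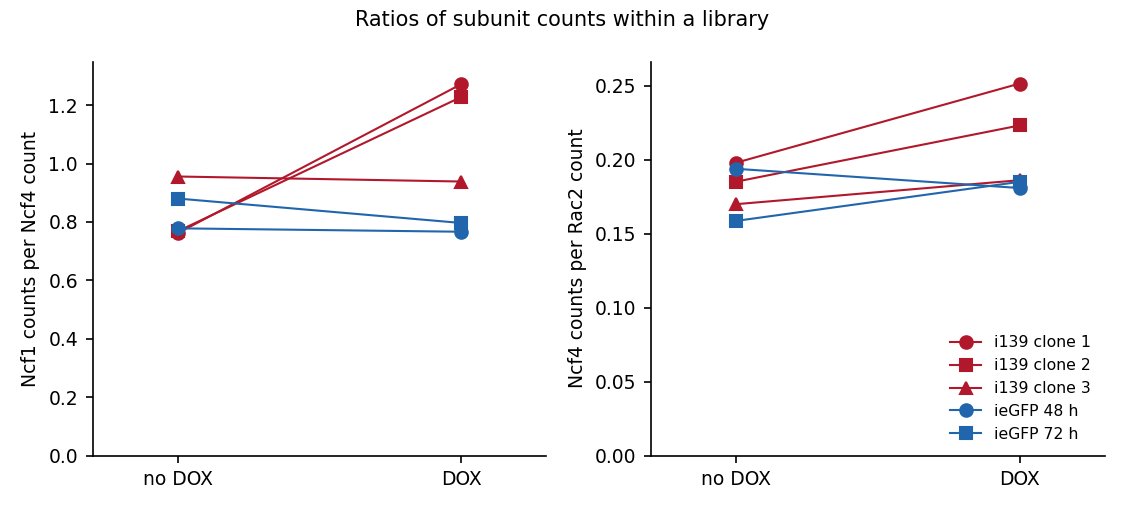
Counts of Ncf1 per count of Ncf4 (left) and of Ncf4 per count of Rac2 (right) in the same library (y axes, linear from 0), with lines joining the libraries without and with DOX of a clone or time point, red for MLL-AF9-i139 and blue for MLL-AF9-ieGFP. In clones 1 and 2 the left ratio goes from 0.762 and 0.768 to 1.27 and 1.23, and in clone 3 from 0.956 to 0.939.

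Across the 10 libraries, log2 CPM of the members were correlated with a Pearson r from 0.599 (Cybb and Rac2) to 0.939 (Ncf1 and Ncf4), a description over libraries that share the DOX groups. The 5 other genes most like the mean profile of the members, out of 7449 genes with an average log2 CPM of at least 4, were Mapk3, a kinase of the ERK cascade (r = 0.992), Shkbp1 (r = 0.989), Tln1, the talin that links integrins to actin (r = 0.988), Myh9, a non-muscle myosin heavy chain (r = 0.987) and Sec16a, of the export sites of the endoplasmic reticulum (r = 0.985).

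Among 3 further components of the oxidase, Cybc1, the chaperone needed for the cytochrome, had 47.6, 54.1 and 36.1 CPM in untreated MLL-AF9-i139 clones 1, 2 and 3, and 65.5, 69.8 and 37.5 CPM after treatment. Clones 1 and 2 were higher with DOX and clone 3 nearly the same, so the groups overlapped. Its log2 fold change in the blocked fit was 0.31 (SE 0.10), beside 0.18 (SE 0.08) for Rac1 and 0.14 (SE 0.17) for Rac3, the GTPases most like Rac2, with adjusted p of 0.0962, 0.195 and 0.634. In the annotation 51.4% of the Rac1 exons lie in exons of other genes, and what this did to its counts was not tested. The median of the 3 without the block was 0.18, and 0 of them were called with or without the block, with 0 at an unadjusted p under 0.05 and 0 called by DESeq2. Without clone 3, Cybc1 (0.43, SE 0.10, adjusted p = 0.0221) was called higher.

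Among the other NADPH oxidases and their partners, Nox1, Noxo1 and Duox1 had 4832, 501 and 256 counts in total, more than the 178 of Cybb. The rest had at most 26. Of 9 genes 4 had enough counts to be tested, with a median log2 fold change of -0.25, and 0 were called with or without the block. Nox1, an oxidase of epithelia with 12.1% of its exons in exons of other genes, had 11.3 ± 2.97 and 13.9 ± 2.92 CPM without and with DOX (SD, n = 3), and its partner Noxo1 had 1.36 ± 0.133 and 1.03 ± 0.220 CPM. For Noxo1, 70.4% of the exons lie in exons of Tbl3, a gene of the opposite strand, and what this did to its counts was not tested.

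Genes that act on the oxidase were in part higher too. The list of 16 held activators, but also the channel Hvcn1 and Arhgdia and Arhgdib, which keep Rac GTPases inactive. In the blocked fit, 5 of the 16 were called higher and 0 lower, and Arhgdia and Arhgdib were not called. The median log2 fold change over the list was 0.25 without the block. Here and in the other lists, a fold change given with a blocked p comes from the blocked fit, any other from the fit without it, in which edgeR called 0 of the listed genes. Among all genes tested, 7.05% were called higher and 5.33% lower with the block, and 11.6% and 10.1% without clone 3. Hvcn1, the proton channel that compensates the charge the oxidase moves, was at 1.86 (SE 0.24, adjusted p = 0.018 with the block). Of the Hvcn1 exons, 57.1% lie inside Tctn1, a gene of the opposite strand, and what this did to its counts was not tested. Pik3r5, a regulator of phosphoinositide 3-kinase gamma, was at 1.21 (SE 0.26, adjusted p = 0.0338 with the block, 0.285 without it and 0.123 by DESeq2). Pla2g4a, cytosolic phospholipase A2, had -0.13 (SE 0.10), and Prkcb, protein kinase C beta, -0.12 (SE 0.19), and neither passed. Without clone 3, 8 of the 16 were called higher, Arhgdib among them (0.43, SE 0.10, adjusted p = 0.0173).

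A list of receptors tied to the burst had a median of 1.14 over 13 tested of 16. It also held the kinase Syk, the adaptor Fcer1g and Fcgr2b, an Fc receptor that inhibits. With the block 8 of these genes were called higher and 0 lower, Syk and Fcgr2b (0.87, SE 0.10, adjusted p = 0.0147) among those higher. C5ar1, the receptor for complement C5a, had 4.75 ± 1.06 CPM untreated and 24.1 ± 15.8 CPM treated (SD, n = 3), a log2 fold change of 2.12 (SE 0.35, adjusted p = 0.0246 with the block). Ptafr, the receptor for platelet-activating factor, was at 1.99 (SE 0.30, adjusted p = 0.022 with the block). Tlr4 had -0.12 (SE 0.13) and Clec7a, the beta-glucan receptor dectin, -0.28 (SE 0.22), and neither passed. Fpr2 was listed at 0 in all libraries and Itgam, an integrin, had too few counts to be tested, and the annotation places 97.8% and 99.1% of their exons inside other genes. Without clone 3, 10 of the 13 were called higher, with Fcgr2b, Syk and Fcer1g among them.

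Among transcription factors known for oxidase genes, 3 of 8 tested were called higher with the block and 1 lower, with a median of 0.53. Irf1 was at 0.74 (SE 0.16, adjusted p = 0.0335 with the block). Spi1, which encodes PU.1, and Cebpe were the others called higher, named here after their values were seen, at 0.62 (SE 0.15, adjusted p = 0.0448 with the block) and 0.57 (SE 0.12, adjusted p = 0.0347 with the block). Cebpd had 0.85 (SE 0.25, adjusted p = 0.0677 with the block) and did not pass, but was called without clone 3 (1.28, SE 0.10, adjusted p = 0.000358), where clone 3 alone was at -0.03. Cebpa had 0.17 (SE 0.17). Hoxa10, a homeobox factor, was called lower in the blocked fit alone, at -0.38 (SE 0.09, adjusted p = 0.0409), with an adjusted p of 0.204 without the block, 0.139 by DESeq2 and 0.124 without clone 3. Without clone 3, 5 of the 8 were called higher and 0 lower. Irf8 was listed at 0 in all libraries and, like Cyba, lies inside Gm20388.

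Maturation markers of myeloid cells were split. With the block 6 of 14 tested were called higher and 0 lower, beside 7.05% and 5.33% of all genes, with a median of 0.80. Cxcr2, a chemokine receptor of neutrophils, went from 1.05 ± 0.261 to 22.3 ± 19.5 CPM (SD, n = 3), a log2 fold change of 4.02 (SE 0.60, adjusted p = 0.0219 with the block), with 1.50 in clone 3 against 4.89 and 4.60 in clones 1 and 2. Lyz2, the lysozyme of myeloid cells, was at 1.81 (SE 0.36, adjusted p = 0.0301 with the block). S100a9, an abundant neutrophil protein, had 0.01 (SE 0.28), and Ly6c2, a marker of monocytes, -0.29 (SE 0.19), and neither passed. Without clone 3, 7 were called higher, and Ly6c2 was the 1 called lower.

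Genes that handle reactive oxygen went both ways. With the block 6 of 21 were called higher and 2 lower, and the median was 0.09. Mpo, myeloperoxidase, which uses the peroxide formed downstream of the oxidase, was higher in all 3 clones, by 1.66, 1.02 and 1.53 on the log2 scale (1.41, SE 0.13, adjusted p = 0.00955 with the block), so that here clone 3 was not the lowest. In MLL-AF9-ieGFP the Mpo level was also higher with DOX at both times, by 0.43 at 48 h and 0.53 at 72 h (0.49, SE 0.21, adjusted p = 1), and the difference between the constructs was not called (0.90, SE 0.27, adjusted p = 0.527). Sod3, the extracellular superoxide dismutase, was at 1.13 (SE 0.28, adjusted p = 0.0439 with the block, 0.328 without it and 0.203 by DESeq2). The genes called lower were Gclc, the enzyme that sets the rate of glutathione synthesis, at -0.84 (SE 0.15, adjusted p = 0.0271 with the block), and Sod2, the mitochondrial superoxide dismutase, at -0.62 (SE 0.14, adjusted p = 0.0404 with the block). Without clone 3, 5 were called higher and 6 lower.

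Progenitor markers differed little as a list. With the block 2 of 10 were called higher and 1 lower, with a median of 0.05. Those higher were Mpo, which is also in the list above, and Cd34, which lay under 1 CPM on average and is named after its value was seen. Hoxa9, a homeobox gene that MLL fusions keep on, was called lower with the block, at -0.35 (SE 0.08, adjusted p = 0.0428). It was not called without the block (adjusted p = 0.213), where its groups overlapped, but was called without clone 3 (adjusted p = 0.0349). Flt3, a receptor kinase of progenitors, had 0.51 (SE 0.33) and did not pass. Prtn3, a granule protease, had -0.34 (SE 0.29) and did not pass, but was called lower without clone 3 (-0.66, SE 0.12, adjusted p = 0.00732). Without clone 3, 2 of the 10 were called higher and 2 lower, beside 11.6% and 10.1% of all genes. Over all lists together, edgeR without the block called 0 of 103 genes tested, with 46 at an unadjusted p under 0.05 and 28 called by DESeq2. Among all genes, 3959 of 19223 had an unadjusted p under 0.05, and DESeq2 called 1556 of 12869.

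**Figure D4:**
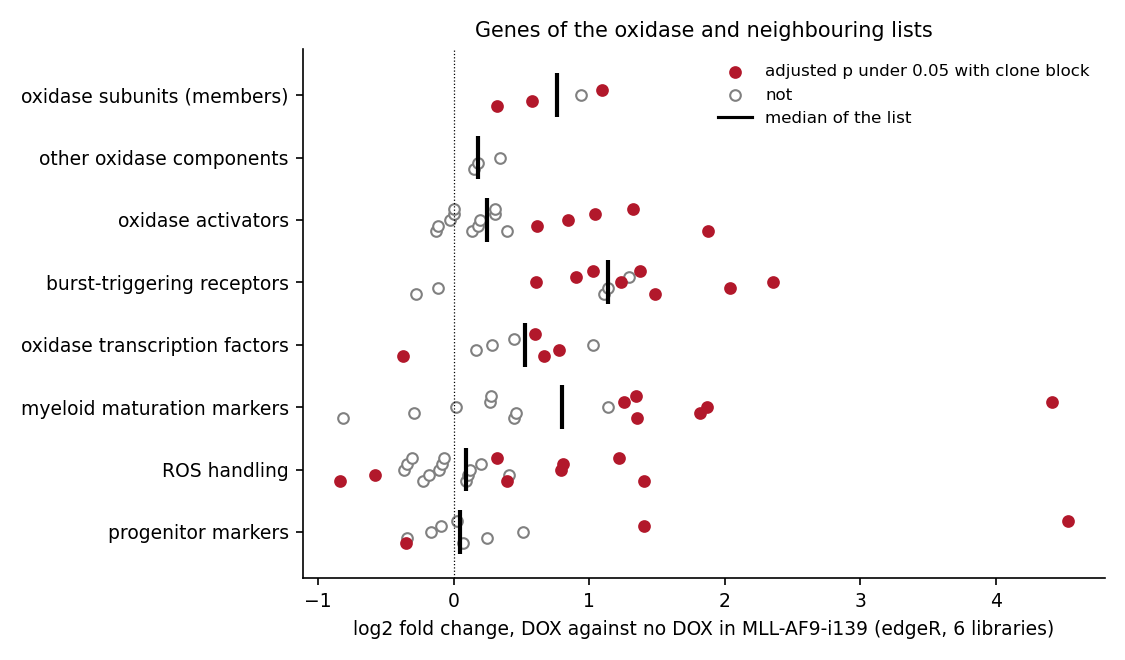
Log2 fold change of DOX against no DOX in MLL-AF9-i139 (x axis, edgeR over 6 libraries) for each tested gene of 8 lists, where ROS stands for reactive oxygen species, red points have an adjusted p under 0.05 with the clone as a block, open points do not, and a black bar is the median of a list. The medians run from 0.05 for progenitor markers to 1.14 for the list of receptors, with 0.76 for the 4 measured subunits. The lists of activators and receptors also hold inhibitors, Arhgdia and Arhgdib in the former and Fcgr2b in the latter.

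Markers of other cells in bone marrow cultures were low. Mast cell and basophil markers summed to between 9.94 and 12.1 CPM without DOX and between 14.9 and 16.6 CPM with DOX in MLL-AF9-i139. Most of this came from Mcpt8, a basophil protease, which was called higher with the block (0.71, SE 0.11, adjusted p = 0.0236). Ms4a2, of the same list, was lower with DOX in each clone but was not called (-0.77, SE 0.20, adjusted p = 0.0537 with the block). Its level went from 1.67 ± 0.365 to 0.970 ± 0.229 CPM (SD, n = 3). Fcer1a and Prss34 were at 0 in all libraries. Eosinophil markers summed to between 1.78 and 3.57 CPM without DOX and between 3.33 and 4.39 CPM with DOX, with Ccr3 at 0 in all libraries. T cell markers summed to between 0.296 and 0.369 CPM without DOX and between 0.483 and 0.668 CPM with DOX, and erythroid markers to at most 2.66 CPM. The part of these cells in the values of the members was not tested. Fewer cells of a type and less RNA per cell cannot be told apart in such bulk libraries.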

How the data were processed

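RNA from 10 cultures was sequenced, and per the labels and the study's methods the authors mapped reads to GRCm38 with STAR 2.5.3e, counted them per gene with featureCounts 1.6.0 on GENCODE M15 and deposited raw read counts, unfiltered. A second deposited table held the same values (0 differences), and 14 further columns of other samples were not used. Strand and overlap settings are not given in the sources used here. Positions and overlaps came from the later GENCODE M21 on the same build, and symbols from its identifiers (52403 of 52550 matched).

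Genes with at least 10 counts in total were tested with edgeR 4.0.16 (TMM, quasi-likelihood test, R 4.3.3), in 6 libraries for MLL-AF9-i139 and in 1 fit of 4 groups over 10 libraries otherwise. Log2 CPM used a prior count of 2. SE is the log2 fold change divided by the root of the F statistic. Alternatives were DESeq2 1.42.0, RLE factors, other filters, the clone block, all libraries, and libraries left out. Libraries with the same clone number are the same cell line, and their deviations from the group means correlated with r of 0.381, 0.288 and 0.414 over 19223 genes, so the blocked value stands beside the result. For MLL-AF9-ieGFP the pairs are time points of 1 clone. Its p-values rest on 1 estimate of the spread shared by all 10 libraries, those of the MLL-AF9-i139 clones included. They measure no spread between MLL-AF9-ieGFP clones.

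Genes were named by a rule: the members, the further oxidase components and, per list, the 2 highest and 2 lowest log2 fold changes among genes of at least 1 CPM on average. The lists, 14 with the members counted as 1 of them, were chosen with earlier results of these data known, so a list's count is no independent evidence. The scripts were tested on simulated data. Sequences came from RefSeq (GRCm38.p6) with Python 3.11.15, and Poisson intervals from scipy 1.17.1. One item is not reported here.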

Additional observations from a re-analysis of the deposited data

How the results depend on the processing

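The direction of Ncf1, Ncf4, Rac2 and Cybb with DOX in MLL-AF9-i139 was the same in the 10 alternatives run for each, and what changed was the call. The replicate block, which pairs the libraries of a clone, gave 2381 called genes in place of 12, and log2 fold changes of 1.03 for Ncf1, 0.56 for Ncf4 and 0.31 for Rac2, all called, and in the difference between constructs 38 genes in place of 1. With DESeq2, 1556 genes were called in that comparison, with Ncf1 at 1.09 and Ncf4 at 0.58 called, 1 gene in MLL-AF9-ieGFP, 82 in the difference and 45 between untreated cells. Without a filter on low counts 562, 1, 71 and 37 genes were called in these 4 comparisons, with Ncf1 at 1.11, and with at least 10 counts in 3 libraries 6 in the first and 0 in the difference. With all 10 libraries in the fit 1234 were called, with Ncf1 at 1.08. With 48 h of DOX only 517 were called in the difference. Leaving out a clone gave 0 to 3981 called genes in MLL-AF9-i139, most without clone 3, with ranges of 0.91 to 1.37 for Ncf1, 0.52 to 0.67 for Ncf4, 0.27 to 0.36 for Rac2 and 0.68 to 1.09 for Cybb. Leaving out a library or clone gave 0 to 2011 in the difference and 0 to 30 between untreated cells. The block without clone 3, an alternative added after the data were seen, called 7974 genes on 1 residual degree of freedom per gene, with Ncf1 at 1.37, Ncf4 at 0.67, Rac2 at 0.36 and Cybb at 1.09. The cause of these changes in the calls was not tested. In MLL-AF9-ieGFP and between untreated cells, where no member was called, leaving out 1 time point or clone turned the sign: in MLL-AF9-ieGFP Cybb ranged from -0.60 to 0.15, Ncf1 from -0.11 to 0.16 and Ncf4 from -0.0902 to 0.304, and between untreated cells Cybb ranged from -0.17 to 0.35 and Ncf4 from -0.126 to 0.0446. RLE factors changed no call of a member. Cybb rests on 7 to 49 counts, where depth limits what can be seen.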
